A study of Mus musculus with 12 samples.

Results

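The genes described here encode the machinery that burns fatty acids and makes ketone bodies. They are 38 genes of the 53599 in the count table, chosen by symbol: 14 of mitochondrial beta-oxidation, 7 of peroxisomal beta-oxidation, 8 of fatty acid uptake, activation and carnitine transport, 2 thioesterases, 2 of ketone body metabolism, and 5 regulators or secreted and signalling products. Gene expression was measured by RNA-seq in 12 mouse liver cell cultures, 3 in each of 4 groups. The cells, per the labels, were hepCLiP, derived from hepatocytes, and bilCLiP, derived from biliary epithelial cells (BECs), the cells lining the bile ducts.

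Each kind of cell was grown in 2 ways. The 2D cultures (hepCLiP 2D and bilCLiP 2D) lay on collagen in small hepatocyte medium (SHM) with 10% fetal bovine serum and the small molecules Y-27632, A83-01 and CHIR99021, together called YAC. The 3D cultures (hepCLiP 3D and bilCLiP 3D) spent 3 days in microwells in SHM with YAC and no serum. They were then in suspension for 6 to 8 days in SHM with YAC and oncostatin M, an interleukin 6 family cytokine, at 10 ng/ml. All 4 groups therefore shared SHM and YAC, while shape, serum, oncostatin M and time differed together between 2D and 3D and cannot be told apart. The genotype was RosaConfetti, a multicolour reporter, in hepCLiP replicates 1 and 3, and RosaYFP, a fluorescent reporter, in hepCLiP replicate 2 and in every bilCLiP sample. Titles set the groups here, since some treatment tags conflict with them: that of replicate 3 of hepCLiP 2D reads 3D, and those of all 3 bilCLiP 3D samples read 2D. The labels do not say whether replicates of the same genotype are separate animals. The p-values therefore measure the spread between these samples. In hepCLiP this spread includes both genotypes, and among replicates of the same genotype it may be technical.

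Fatty acids enter a liver cell through carriers, are joined to coenzyme A, and cross into mitochondria on carnitine. There, beta-oxidation removes acetyl-CoA units in repeated rounds, while peroxisomes shorten very long and branched chains. In a fasting liver the acetyl-CoA is turned into ketone bodies for other organs. PPAR alpha, a nuclear receptor for fatty acids, pairs with RXR and switches on much of this programme.

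Library totals ran from 16142365 to 21253382 counts. Levels are CPM, counts relative to the library total, scaled by TMM, which assumes that most genes do not change. Called means an adjusted p (Benjamini-Hochberg) below 0.05 in edgeR's quasi-likelihood test. The 10 most abundant genes took 5.0 to 7.5% of counts in 2D and 17.6 to 23.2% in 3D. Hepatocyte markers summed to 343 to 1692 CPM in hepCLiP 2D and 43235 to 53595 in 3D, and to 180 to 1043 and 18312 to 44478 in bilCLiP. Albumin (Alb) in hepCLiP 2D replicate 3, the library with the conflicting tag, was 691 CPM, against 21497 to 26620 in hepCLiP 3D. The 7 biliary markers moved in different directions. Their sum, mostly Spp1, was 3186 to 5942 CPM in hepCLiP 2D and 11321 to 15668 in 3D, and 5483 to 10409 and 13640 to 33326 in bilCLiP. Spp1 was called higher in both origins and the keratin Krt19 lower in both; Krt7 was called lower in hepCLiP and not in bilCLiP, and Sox9, Epcam and Cldn7 were not called. In bulk samples, more cells of a type and more RNA per cell cannot be told apart.

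Upstream sequence is shown for Fabp1, which had one of the widest differences between cultures, and for Hadhb, whose start site faces that of Hadha. RefSeq promoter windows (GRCm38.p6, 250 bases before to 50 after a start site) matched 31 of the 38 genes, in 33 windows. Capitals mark, in Fabp1, a C/EBP word (TTGCNNAA) at -174 and a PPAR direct repeat (2 copies of AGGNCA, 1 base apart, here on the minus strand) at -67, counted from the start site. In Hadhb they mark a STAT word (TTCNNNGAA) at -125. No marked word overlaps another.
Fabp1, chr6:71199629-71199878, plus strand: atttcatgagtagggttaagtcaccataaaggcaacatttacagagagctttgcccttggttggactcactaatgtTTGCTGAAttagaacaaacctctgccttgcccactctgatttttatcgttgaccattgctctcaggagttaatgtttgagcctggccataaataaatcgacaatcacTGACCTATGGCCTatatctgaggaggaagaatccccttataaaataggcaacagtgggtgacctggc
Hadhb, chr5:30155003-30155252, plus strand: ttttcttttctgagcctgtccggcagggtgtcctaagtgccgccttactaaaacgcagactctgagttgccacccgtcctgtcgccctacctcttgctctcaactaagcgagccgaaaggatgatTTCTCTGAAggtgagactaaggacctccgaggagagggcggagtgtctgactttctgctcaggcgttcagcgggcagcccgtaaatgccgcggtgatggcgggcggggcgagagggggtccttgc

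Searched on both strands, the PPAR repeat was in 1 of the 33 windows, that of Fabp1, and in 0.381% of all 32851 windows. The C/EBP word was in 4 windows (Acaa1a, Acads, Acot1 and Fabp1), or 12.1%, against 10.8% of all. The STAT word was in 3 (Cpt2, Hadha and Hadhb), or 9.09%, against 8.30%. The HNF4 word CAAAGTCCA was in 0, against 0.475%. The upstream stretches of Hadha and Hadhb share 228 bases, their start sites lie 273 bases apart, and both hold the same STAT word. These matches describe letters only, and binding was not measured.

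Most of the oxidation genes were higher in 3D than in 2D, in cells of both origins. In hepCLiP, 26 of 38 were called higher and 0 lower, against 16.9% higher and 17.9% lower among the 14798 genes tested. In bilCLiP, 25 were called higher and 0 lower, against 15.8% higher and 14.5% lower. Of the genes called higher, 19 in hepCLiP and 18 in bilCLiP rose 2-fold or more, while the all-gene shares are of calls at any fold. The same all-gene shares apply to the counts by role below. With same-numbered libraries paired as a block, Acaa1b was called lower in both origins, against 24.7% of all genes lower in hepCLiP and 21.5% in bilCLiP. All 38 passed the filter on low counts. The median log2 fold change of the 38 was 1.00 in hepCLiP and 0.96 in bilCLiP, against -0.061 and -0.0024 over all genes tested. Called higher in both origins were 23 genes, and 10 were called in neither. The shares of all genes called in both origins or in neither were not computed. Such joint counts, here and below, therefore stand without a comparison.

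The mean of log2(CPM + 1) over the 38 genes was 4.95 ± 0.10 (SD, n = 3) in hepCLiP 2D and 6.38 ± 0.098 in hepCLiP 3D. It was 4.72 ± 0.18 in bilCLiP 2D and 6.12 ± 0.25 in bilCLiP 3D. The scaling matters for how many genes are called. Scaled by total counts, the all-gene median moved to -0.63 in hepCLiP and -0.47 in bilCLiP. Of the 38 genes, 15 were then higher and 2 lower (Acadl, Acaa1b) in hepCLiP, and 19 higher and 3 lower (Acads, Acaa1b, Cpt1a) in bilCLiP, with 15 higher in both. Of all genes, 8.73% were then higher and 44.8% lower in hepCLiP, and 9.09% and 36.6% in bilCLiP. The distance of the genes' median from the all-gene median was 1.06 with TMM and 1.05 with total counts in hepCLiP, and 0.96 and 0.95 in bilCLiP. A change of scaling moves every gene of a contrast by nearly the same amount. This distance is therefore nearly fixed by construction and is no check on the scaling. Without any scaling of composition, the 38 genes made up 0.224 to 0.277% of all counts in 2D and 0.339 to 0.393% in 3D. Restricted to RosaYFP samples, where hepCLiP has 1 library per culture and its spread is taken from the other groups, 7 were called in hepCLiP, against 4.82% of all genes in that fit and 34.7% in the fit of all samples.

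**Figure D1:**
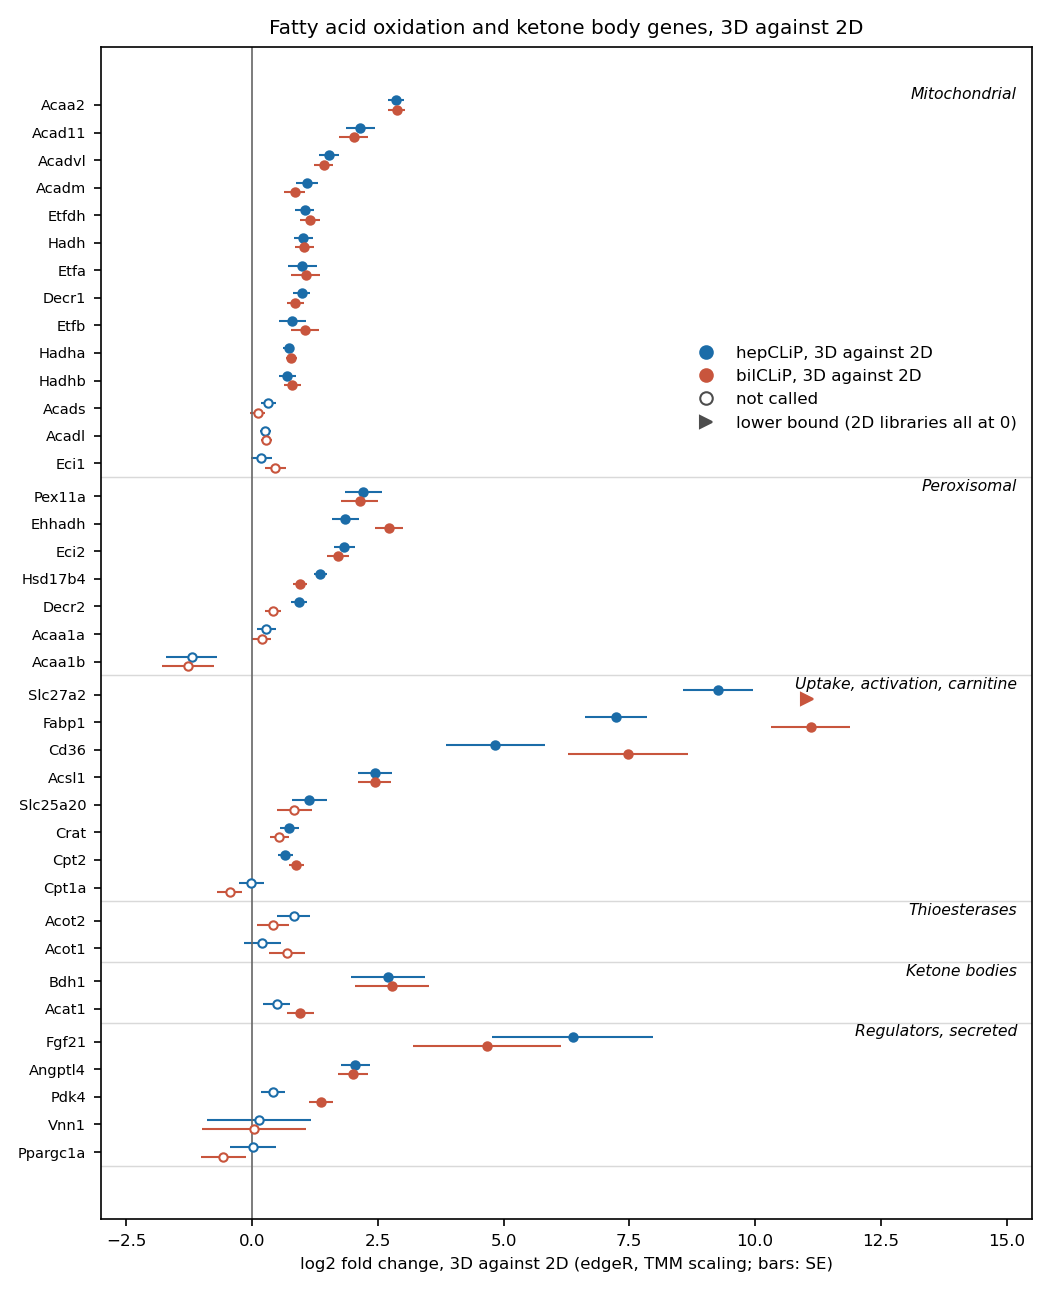
Log2 fold change of each of the 38 genes, 3D against 2D (x axis; bars, SE), by role, in hepCLiP (blue) and bilCLiP (red); filled symbols passed the test and the triangle is a lower bound. The points run from Acaa1b, at -1.20 and -1.27, to Slc27a2 and Fabp1.

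**Figure D2:**
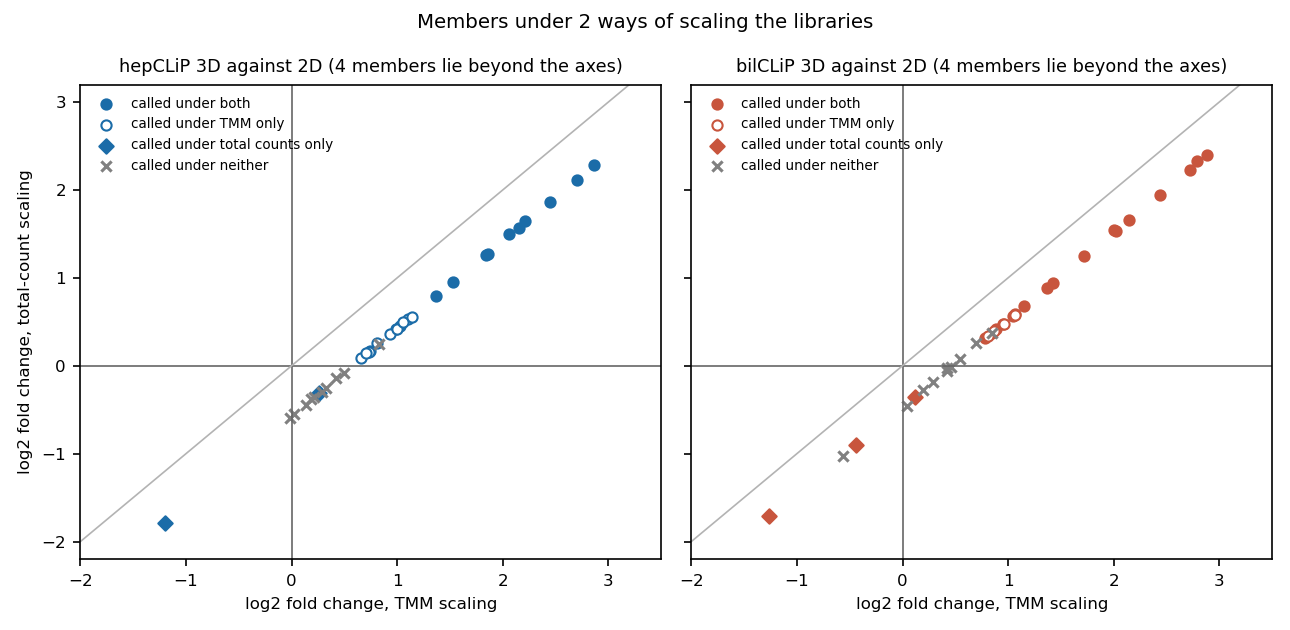
Log2 fold change of the genes with TMM scaling (x axis) and total-count scaling (y axis) in each origin; the grey diagonal marks equal values, and 4 genes a panel lie beyond the axes. All points shown lie below the diagonal, since the change of scaling lowers every gene of a contrast by nearly the same amount.

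In mitochondrial beta-oxidation, 11 of 14 genes were higher in hepCLiP and those 11 were also higher in bilCLiP, with medians of 1.00 and 0.95. Acaa2, the thiolase of the last step, moved most. Its levels were 52.1, 55.9 and 49.2 CPM in hepCLiP 2D and 389, 386 and 368 in hepCLiP 3D. In bilCLiP they were 40.6, 56.5 and 48.3 in 2D and 314, 424 and 333 in 3D. No 3D library came near a 2D one, and the log2 fold changes were 2.86 ± 0.165 (SE; adjusted p = 7.63e-06) and 2.88 ± 0.165 (adjusted p = 5.41e-06).

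Acad11, an acyl-CoA dehydrogenase, stood at 40.8, 33.7 and 32.8 CPM in hepCLiP 2D and 141, 212 and 125 in 3D. It stood at 42.1, 22.3 and 24.4 in bilCLiP 2D and 117, 146 and 98.3 in 3D. The groups did not overlap in either origin, and the log2 fold changes were 2.15 ± 0.283 (adjusted p = 0.000369) and 2.02 ± 0.281 (adjusted p = 0.000576). Acadvl, which starts the oxidation of very long chains, followed at 1.53 and 1.43, and Acadm, the medium-chain enzyme, at 1.10 and 0.85. Leaving out bilCLiP 3D replicate 2 ended the bilCLiP call of Acadm (adjusted p = 0.0517).

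The trifunctional protein, which carries out the later steps on long chains, rose through both subunits: Hadha by 0.73 and 0.79, and Hadhb by 0.71 and 0.81. Hadh, the short-chain hydroxyacyl-CoA dehydrogenase, rose by 1.03 and 1.05, and Decr1, which handles unsaturated chains, by 0.99 and 0.86. The electron acceptors rose too. Etfdh rose by 1.05 and 1.16, Etfa by 1.00 and 1.07 and Etfb by 0.81 and 1.06. The Etfb call in hepCLiP was lost in 9 of the 12 fits that left out 1 library (adjusted p up to 0.18), and held only without hepCLiP 3D replicate 1 or bilCLiP 3D replicate 1 or 2. In bilCLiP it was lost without 2D replicate 3 or 3D replicate 2 (up to 0.0611). Etfa lost its hepCLiP call without 2D replicate 3 or 3D replicate 2 (up to 0.0733), and its bilCLiP call without 2D replicate 2 or 3 or 3D replicate 1 or 2 (up to 0.0697).

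Acadl, the long-chain dehydrogenase, was steady: 181, 178 and 178 CPM in hepCLiP 2D and 232, 207 and 207 in 3D. In bilCLiP it was 156, 175 and 183 in 2D and 216, 209 and 202 in 3D. The groups did not overlap, yet the log2 fold changes of 0.26 and 0.28 were not called (adjusted p = 0.0822 and 0.0701). The call depended on the method: DESeq2 called Acadl higher in both origins (0.31, adjusted p = 0.0114, and 0.29, adjusted p = 0.0235), and with total-count scaling the values were -0.31, called lower, and -0.18. Acads, for short chains, at 0.33 and 0.12, and Eci1, an isomerase, at 0.19 and 0.46, were not called by the main test. With a replicate block, Acads was called higher in hepCLiP (0.32, adjusted p = 0.0353) and Eci1 in bilCLiP (0.46, adjusted p = 0.0369), while with total-count scaling both turned negative in both origins.

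Among the peroxisomal genes, 5 of 7 were higher in hepCLiP and 4 of 7 in bilCLiP, with medians of 1.36 and 0.95. Ehhadh, the bifunctional enzyme and a PPAR alpha target, was at 16.7, 18.1 and 16.9 CPM in hepCLiP 2D and at 56.6, 77.1 and 53.6 in 3D. In bilCLiP it was at 8.61, 6.72 and 9.11 in 2D and at 40.1, 79.9 and 41.8 in 3D. All 3D libraries lay above all 2D libraries, and the log2 fold changes were 1.86 ± 0.265 (adjusted p = 0.00058) and 2.73 ± 0.275 (adjusted p = 0.000112).

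Pex11a, which promotes the division of peroxisomes, was at 8.88, 9.68 and 9.59 CPM in hepCLiP 2D and 41.7, 43.8 and 45.2 in 3D. In bilCLiP it was at 4.44, 11.5 and 11.1 in 2D and 24.1, 57.9 and 37.8 in 3D. The groups were apart in both origins, by 2.21 ± 0.368 (adjusted p = 0.00127) and 2.15 ± 0.367 (adjusted p = 0.00172). Hsd17b4, the other bifunctional enzyme, was at 95.6, 85.2 and 83.1 in hepCLiP 2D and 226, 236 and 217 in 3D, and at 86.7, 92.7 and 86.4 in bilCLiP 2D and 144, 204 and 166 in 3D. It rose by 1.36 ± 0.137 (adjusted p = 0.000109) and 0.95 ± 0.136 (adjusted p = 0.000657). The isomerase Eci2 rose by 1.84 and 1.72. Decr2, a reductase of unsaturated chains, rose by 0.94 in hepCLiP; in bilCLiP its 0.43 was not called (adjusted p = 0.0673), but was with a replicate block (0.41, adjusted p = 0.0440).

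The peroxisomal thiolases did not follow. Acaa1a stood at 135, 157 and 105 CPM in hepCLiP 2D and 156, 195 and 132 in 3D, and at 134, 133 and 122 in bilCLiP 2D and 171, 149 and 125 in 3D. The ranges overlapped, and its 0.28 and 0.20 were not called and turned negative with total-count scaling (-0.30 and -0.27). Acaa1b was at 45.9, 85.5 and 34.9 in hepCLiP 2D and 24, 34.8 and 13.6 in 3D, and at 25.1, 47.1 and 21 in bilCLiP 2D and 21.2, 10.7 and 6.79 in 3D. Its log2 fold changes of -1.20 ± 0.509 (adjusted p = 0.0913) and -1.27 ± 0.513 (adjusted p = 0.0860) were not called by the main test. With same-numbered libraries paired as a block they were (-1.20, adjusted p = 0.0211, and -1.33, adjusted p = 0.0187), and DESeq2 called it lower in bilCLiP (-1.26, adjusted p = 0.0452). Acaa1a and Acaa1b transcripts share 34.0 and 35.6% of their 50-base words, so their split of reads is uncertain.

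Uptake and activation held the widest differences: 7 of 8 genes were higher in hepCLiP and 5 of 8 in bilCLiP. Fabp1, the liver's cytosolic fatty acid carrier, was at 0.925, 0.318 and 1.80 CPM in hepCLiP 2D and 148, 157 and 153 in 3D. In bilCLiP it was at 0, 0.194 and 0 in 2D and 151, 238 and 117 in 3D. The 2D libraries lay near 0 and the 3D libraries of the origins overlapped, with log2 fold changes of 7.24 ± 0.613 (adjusted p = 4.71e-05) and 11.10 ± 0.788 (adjusted p = 1.68e-05). The bilCLiP value rests on 5 counts in 2D, and leaving out 1 library moved it between 10.57 and 14.59.

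Slc27a2, which takes up and activates very long chains, was at 0.509, 0.136 and 0.450 CPM in hepCLiP 2D and 224, 301 and 155 in 3D, a log2 fold change of 9.26 ± 0.688 (adjusted p = 6.92e-05). In bilCLiP it had no count in 2D and 38.7, 138 and 81.1 CPM in 3D. It was therefore at least 2078-fold higher in bilCLiP 3D, taking 3 counts over the 2D group as the floor (adjusted p = 7.13e-05).

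Cd36, a fatty acid receptor at the cell surface, was at 0.648, 6.46 and 6.69 CPM in hepCLiP 2D and 93.0, 195 and 107 in 3D, and at 0, 0.544 and 0.592 in bilCLiP 2D and 14.3, 131 and 61.3 in 3D. The groups were apart by 4.84 ± 0.987 (adjusted p = 0.00381) and 7.48 ± 1.19 (adjusted p = 0.00122), with bilCLiP 3D replicate 1 the lowest 3D library. Macrophages, endothelium and adipocytes also express Cd36. The 5 macrophage markers summed to 4.13 to 10.8 CPM in 2D and 4.81 to 19.3 in 3D, with Marco at 0 in all libraries. Within the sum, mean Csf1r went from 3.22 CPM in 2D to 9.06 in 3D in hepCLiP, and from 3.72 to 11.5 in bilCLiP. Mean Cd68 went the other way, from 4.33 to 1.76 in hepCLiP and from 4.23 to 2.11 in bilCLiP. Endothelial markers summed to at most 3.70 CPM and adipocyte markers to at most 0.350, with Lep at 0. The source of the Cd36 reads was not tested.

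Acsl1, which joins long chains to coenzyme A, rose by 2.45 and 2.44. Of the carnitine shuttle, Cpt2, its inner-membrane enzyme, rose by 0.66 and 0.89. The carrier Slc25a20 and the acetyltransferase Crat rose in hepCLiP by 1.14 and 0.74; the Slc25a20 call was lost without hepCLiP 2D replicate 3 or 3D replicate 1 or 2 (adjusted p up to 0.0838). In bilCLiP their 0.85 and 0.54 were not called (adjusted p = 0.0892 and 0.0506), but were with a replicate block (adjusted p = 0.00369 and 0.0344), and DESeq2 called Crat (adjusted p = 0.0432). Cpt1a, the gate of mitochondrial entry, was at 288, 365 and 254 CPM in hepCLiP 2D and 306, 359 and 234 in 3D, and at 154, 290 and 269 in bilCLiP 2D and 181, 195 and 152 in 3D. Its groups overlapped, and the log2 fold changes of -0.01 ± 0.2499 (adjusted p = 0.972) and -0.44 ± 0.2504 (adjusted p = 0.216) were not called. The hepCLiP value was 0.033 with DESeq2 and the bilCLiP value was called lower with total-count scaling.

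**Figure D3:**
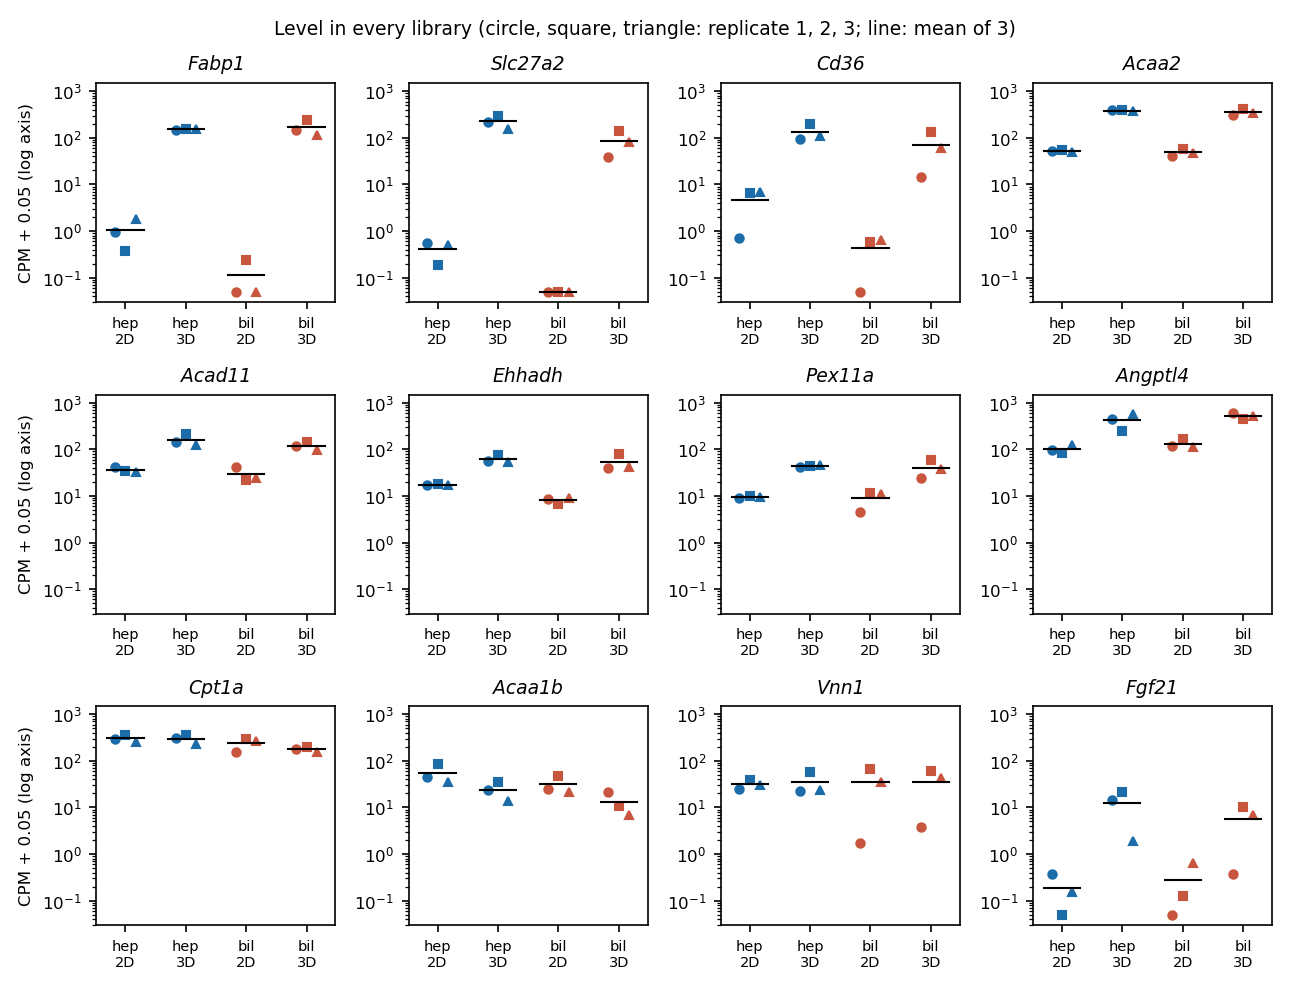
CPM + 0.05 (log axis) of 12 genes in every library, with the mean of 3 as a line. Of the genes shown, Fabp1 and Slc27a2 differ most between cultures, Cpt1a overlaps, and Vnn1 is low in bilCLiP replicate 1 of both cultures.

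The 2 thioesterases, which release free fatty acids from coenzyme A, were not called. Acot1, the cytosolic one, was at 99.4, 93.8 and 60.6 CPM in hepCLiP 2D and 82.4, 87.7 and 124 in 3D, and at 63.3, 103 and 99.9 in bilCLiP 2D and 236, 109 and 87.9 in 3D. Acot2, the mitochondrial one, was at 10.8, 9.32 and 5.89 in hepCLiP 2D and 18.4, 14.3 and 13.6 in 3D, and at 7.24, 9.13 and 7.38 in bilCLiP 2D and 16.0, 8.96 and 6.85 in 3D. In hepCLiP the Acot2 groups were apart (0.83 ± 0.324, adjusted p = 0.0695; with a replicate block 0.86, adjusted p = 0.0331; with DESeq2 0.88, adjusted p = 0.0355), while the other 3 comparisons overlapped. Acot1 and Acot2 share 23.7 and 24.6% of their 50-base words, so their counts are uncertain.

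Of the ketone body genes, Bdh1, which interconverts acetoacetate and beta-hydroxybutyrate, was at 2.08, 0.636 and 1.10 CPM in hepCLiP 2D and 11.9, 8.44 and 4.66 in 3D. In bilCLiP it was at 0.345, 2.37 and 0.364 in 2D and 8.30, 6.49 and 6.79 in 3D. It rose by 2.703 ± 0.734 (adjusted p = 0.0158) and 2.79 ± 0.737 (adjusted p = 0.0160), at low counts. The calls were lost without hepCLiP 2D replicate 2 or 3 (adjusted p up to 0.0563) and without bilCLiP 2D replicate 3 (0.0507). Acat1, the mitochondrial acetoacetyl-CoA thiolase, was at 65.5, 74.5 and 39.7 in hepCLiP 2D and 77.9, 82.9 and 92.1 in 3D, and at 64.5, 32.7 and 41.4 in bilCLiP 2D and 76.5, 99.2 and 94.7 in 3D. The groups were apart in both origins, but only the bilCLiP change was called (0.96 ± 0.270, adjusted p = 0.0205; hepCLiP 0.49 ± 0.268, adjusted p = 0.179), and it was lost without bilCLiP 2D replicate 2 or 3 or 3D replicate 2 or 3 (adjusted p up to 0.0715).

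Of 5 regulators and products, 2 were higher in hepCLiP and 3 in bilCLiP. Angptl4, a secreted inhibitor of lipoprotein lipase, was at 97.5, 81.4 and 121 CPM in hepCLiP 2D and 439, 251 and 560 in 3D, and at 116, 166 and 111 in bilCLiP 2D and 608, 437 and 531 in 3D. The groups were apart, by 2.06 ± 0.296 (adjusted p = 0.000592) and 2.01 ± 0.295 (adjusted p = 0.000793). Fgf21, a fasting hormone of the liver, was at 0.324, 0 and 0.0999 in hepCLiP 2D and 14.1, 20.9 and 1.88 in 3D, and at 0, 0.0777 and 0.592 in bilCLiP 2D and 0.329, 10.0 and 6.79 in 3D. It was called in both origins (6.37 ± 1.605, adjusted p = 0.0110; 4.67 ± 1.48, adjusted p = 0.0349), although bilCLiP 3D replicate 1 fell within the 2D range and the bilCLiP call was lost without bilCLiP 2D replicate 1 or 2 or 3D replicate 2 or 3 (adjusted p up to 0.108).

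Pdk4, a kinase that inhibits pyruvate dehydrogenase, rose in bilCLiP by 1.37 ± 0.243 (adjusted p = 0.00203), while its 0.42 in hepCLiP was not called (adjusted p = 0.201). The coactivator Ppargc1a was not called (0.02 and -0.56). Vnn1, which makes cysteamine, was at 25.3, 38.5 and 30.8 CPM in hepCLiP 2D and 22.1, 58.4 and 23.4 in 3D, and at 1.68, 66.1 and 35.8 in bilCLiP 2D and 3.82, 59.9 and 42.8 in 3D. Its spread between replicates was far wider than between cultures (0.14 ± 1.03 and 0.04 ± 1.03).

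The next question was whether the genes differed by origin. In 2D, 0 of 38 were called between bilCLiP and hepCLiP, against 0.135% of all genes, and in 3D also 0, against 0.101%. For the difference between the culture effects 0 were called, against 0% of all genes. At an unadjusted p under 0.05 edgeR gave 8, 7 and 5 of the 38, against 14.5, 16.6 and 3.60% of all genes. DESeq2 called 3, 0 and 1 after adjustment, against 3.31, 4.07 and 0.11% of the genes it tested. The 3 in 2D were Ehhadh, Fabp1 and Slc27a2, all lower in bilCLiP, where edgeR gave adjusted p = 0.161, 0.156 and 0.217. The levels behind this are those above: Slc27a2 had 0 counts in bilCLiP 2D against 23 in hepCLiP 2D, at least 8.54-fold lower. A p that misses the threshold does not show that the origins were alike.

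Libraries of a group differed in how often they were highest or lowest over the 38 genes. In hepCLiP 3D, replicates 1 to 3 were highest for 9, 15 and 14 and lowest for 13, 7 and 18, and in hepCLiP 2D highest for 17, 15 and 6 and lowest for 5, 12 and 21. In bilCLiP 3D, replicates 1 to 3 were highest for 11, 27 and 0 and lowest for 21, 2 and 15. Albumin in those libraries was 6026, 19965 and 22893 CPM in replicates 1 to 3, and Ppara was 10.9, 37.3 and 20.7. In bilCLiP 2D, replicates 1 to 3 were highest for 5, 19 and 13 and lowest for 22, 7 and 7. Without bilCLiP 3D replicate 2, 20 of the 38 were called in bilCLiP, against 20.1% of all genes, and without hepCLiP 2D replicate 3, 22 in hepCLiP, against 27.3%. The part of these markers in the results was not tested.

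A further 106 genes of the same pathways place the 38 in context; 102 of them could be tested. In hepCLiP 53 were higher and 7 lower, against 16.9% and 17.9% of all genes tested. In bilCLiP 49 were higher and 5 lower, against 15.8% and 14.5%. The same all-gene shares apply to each list below. Of 16 genes of transcription control, 7 were higher and 2 lower in hepCLiP, and 8 and 2 in bilCLiP. Ppara itself was at 3.79, 4.36 and 4.10 CPM in hepCLiP 2D and 59.9, 66.5 and 30.4 in 3D, and at 1.03, 3.27 and 2.14 in bilCLiP 2D and 10.9, 37.3 and 20.7 in 3D. It rose by 3.68 ± 0.521 (adjusted p = 0.000572) and 3.41 ± 0.522 (adjusted p = 0.000993). Creb3l3, a liver transcription factor of lipid metabolism, rose by 6.31 and 7.06, and Klf15 by 2.91 and 4.15. Lower in both were Ppard, a relative of Ppara (-0.72 and -0.55), and Nrip1, a corepressor (-1.82 and -2.01), both named after their values were seen.

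Of 7 further ketone body genes, 3 were higher in each origin and 0 lower. The monocarboxylate carrier Slc16a1, which carries ketone bodies, rose by 0.80 and 1.24, its hepCLiP call being lost without 2D replicate 3 or 3D replicate 2 (adjusted p up to 0.0581).

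Of 21 further peroxisomal genes tested, 15 were higher and 0 lower in hepCLiP, and 13 and 1 in bilCLiP. Phyh, of branched-chain alpha-oxidation, rose by 2.97 and 2.58, and Scp2, a sterol carrier and thiolase, by 2.90 and 2.71. Acox2 rose by 2.81 and 2.20, and its bilCLiP call was lost in 10 of the 12 fits without 1 library (adjusted p up to 0.111; it held only without bilCLiP 2D replicate 1 or 3), and its hepCLiP call without 2D replicate 2 (0.0562).

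For activation and carnitine, 8 of 15 were higher and 1 lower in hepCLiP, and 7 and 0 in bilCLiP. Slc27a5, a bile acid and fatty acid ligase, rose by 11.11 and 10.12. Its 2D libraries held only 5, 3 and 1 counts in hepCLiP and 2, 0 and 3 in bilCLiP. Acsm1, of medium chains, rose by 6.505 in hepCLiP; in bilCLiP the ratio was 1790 (95% exact interval 495.1 to 14790, counting error only) from 2 counts in 2D. Acsm5 rose by 6.30 in hepCLiP, where its 9 counts in 2D all lay in replicate 1 and leaving out 1 library moved the value between 5.643 and 10.76. The gene was at least 74.9-fold higher in bilCLiP. Other mitochondrial acyl-CoA enzymes had 11 of 15 higher in hepCLiP and 9 in bilCLiP, with 0 lower. Gcdh rose by 1.70 and 1.86, Ivd by 1.29 and 1.64 and Mmut by 1.01 and 1.36, enzymes of amino acid and propionate breakdown.

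Of 11 lipolysis and droplet genes, 5 were higher and 1 lower in each origin. Plin5, which ties droplets to mitochondria, rose by 7.44 and 7.06, and G0s2, an inhibitor of lipolysis, by 4.58 and 4.69. Plin5 had only 2, 6 and 0 counts in the hepCLiP 2D libraries and 2, 3 and 1 in those of bilCLiP 2D. The G0s2 calls were lost without hepCLiP 2D replicate 2 or 3 or 3D replicate 2 (adjusted p up to 0.0757), and without any 1 bilCLiP 2D library or bilCLiP 3D replicate 2 (up to 0.116). Cidea, a droplet protein, was at least 50.3-fold higher in hepCLiP, and in bilCLiP the ratio was 91.0 (15.8 to 3651) from 1 count in 2D. The lower gene was Plin2, a droplet coat protein, at -1.27 and -1.66. The citric acid cycle had 4 of 17 higher and 3 lower in hepCLiP (median 0.037), and 4 and 1 in bilCLiP (median 0.24), beside all-gene shares of 16.9% and 17.9%, and 15.8% and 14.5%. Cs, citrate synthase, was lower in both, at -1.12 ± 0.131 (adjusted p = 0.0002) and -0.94 ± 0.130 (adjusted p = 0.00056). Suclg1 rose by 0.82 and 0.98, and Idh3a was lower in hepCLiP (-0.92), a call lost without 2D replicate 1 or any 1 of the 3D libraries (adjusted p up to 0.0748). The lists' difference from one another was not tested.

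**Figure D4:**
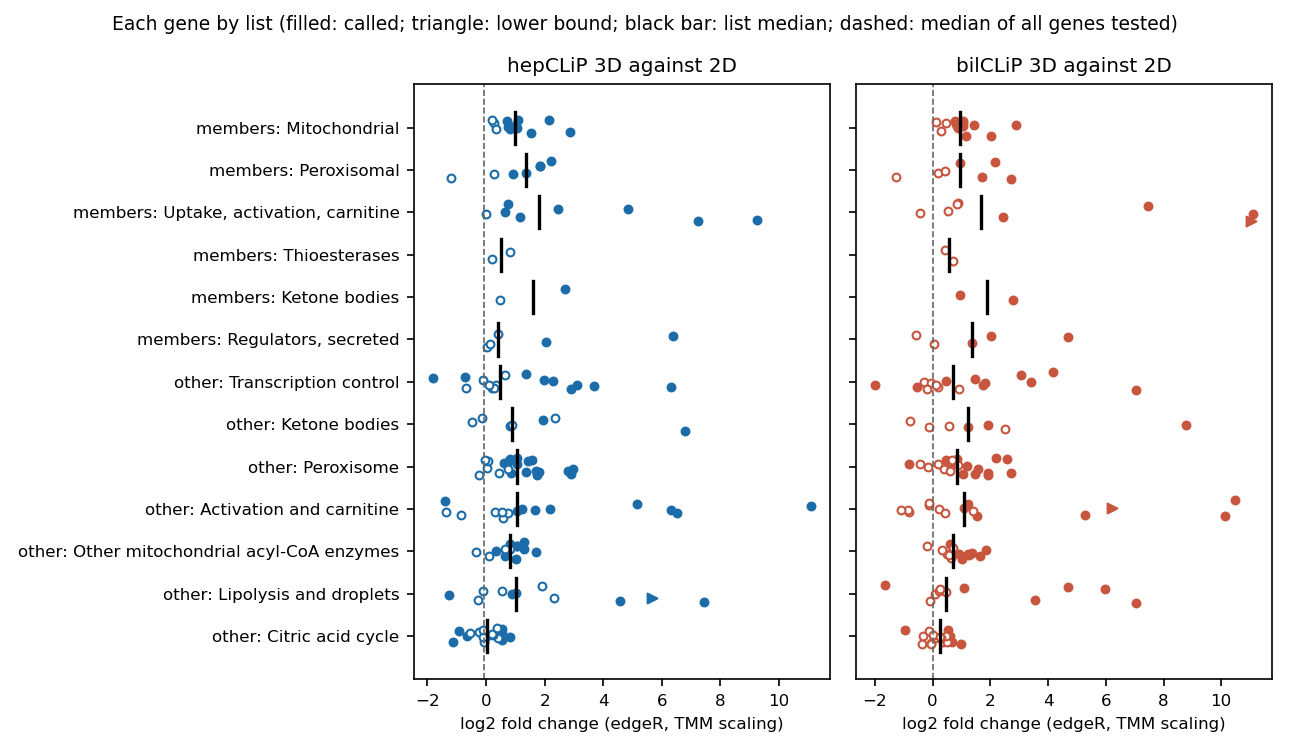
Log2 fold change (x axis) of each gene by list, for the 38 genes by role and for the further pathway genes, in each origin; filled points were called, triangles are lower bounds, bars are list medians and the dashed line is the median of all genes tested. The citric acid cycle medians, 0.037 and 0.24, lie closest to it.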

How the data were processed

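RNA-seq of 12 cultures in 4 groups of 3 was used. The authors deposited raw gene counts; STAR 2.7.10b, featureCounts 2.0.1, DESeq2 and the GRCm39 build are named per the submitters' processing notes, and neither annotation nor strand setting is stated there. The deposited normalized table equals those counts divided by 1 constant per sample and was not used. In R 4.3.3, edgeR 4.0.16 (filterByExpr, TMM, robust quasi-likelihood fit with 4 group means over all samples) was fitted for 5 contrasts, with Benjamini-Hochberg adjustment over 14798 genes and a threshold of 0.05; it was tested on simulated data. SE is the log2 fold change divided by the root of F.

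The members and lists were chosen with earlier results of these data known. All 38 members are accounted for; library values are given for the 2 highest and 2 most changed of each role, and up to 3 called genes of each further list, and Ppara, are named, except a few that are not reported here. Outside that rule, Cd36 and Acaa1b were given library values, and Ppard, Nrip1 and Plin2 named, after their values were seen.

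Alternatives were DESeq2 1.42.0, RLE factors, no filter, RosaYFP samples, a 1.5-fold test, a replicate block, each library left out, other pseudocounts (main 1) and, chosen after seeing the data, total-count scaling. Same-numbered libraries of an origin deviated together (correlations 0.474 to 0.513 in hepCLiP and 0.432 to 0.507 in bilCLiP), so their numbers pair the cultures. The main test and the fits with 1 library left out did not use this pairing, while the replicate block did.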

Additional observations from a re-analysis of the deposited data

Results flagged for a closer look

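The culture effect on Fabp1, the cytosolic fatty acid carrier, differed between the origins in one test of that difference. DESeq2 gave a log2 difference (bilCLiP minus hepCLiP) of 3.96 with an adjusted p of 0.0489. edgeR gave 3.86 ± 1.02 with an adjusted p of 1 and, with a replicate block, 3.85 with an adjusted p of 0.499, so the call rests on DESeq2. All 3D libraries of both origins lay between 117 and 238 CPM, and the 2D libraries between 0.318 and 1.80 CPM in hepCLiP and between 0 and 0.194 in bilCLiP. The bilCLiP 2D level rests on 5 counts, all in replicate 2. Leaving out 1 library moved the edgeR difference between 3.175 and 7.343.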

How the results depend on the processing

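Of the 38 genes, 26 were called in hepCLiP and 25 in bilCLiP. With 1 library left out in turn, 22 to 28 were called in hepCLiP, 20 to 26 in bilCLiP, and 0 to 0 in both origin comparisons and in the difference of the culture effects. Of all genes, those fits called 26.9 to 34.3% in hepCLiP and 20.1 to 29.8% in bilCLiP. They called 0.0393 to 0.202% for origin in 2D, 0.0195 to 1.63% for origin in 3D and 0 to 0.0196% for the difference. A replicate block gave 29 (28 higher, Acaa1b lower) and 30 (29 higher, Acaa1b lower), and 0 in the other 3 comparisons, while the share of all genes called went from 34.7 to 47.1% and from 30.3 to 43.1%. The block changed no other call than those given above. For both origin comparisons it paired same-numbered libraries of different origins. Their deviations correlated by only 0.022 to 0.128 in 2D and 0.087 to 0.150 in 3D, so the 0 calls there are no check. RosaYFP samples gave 7 in hepCLiP, the 1.5-fold test 16 in bilCLiP (15.0% of all genes), total-count scaling 17 in hepCLiP, and DESeq2 3 for origin in 2D and 1 for the difference of the effects. The 3D minus 2D difference of the mean log2 level, 1.42 in hepCLiP and 1.40 in bilCLiP, was 1.549 in hepCLiP with a pseudocount of 0.25, and 1.181 and 1.11 with 5. The cause was not tested; a larger pseudocount by construction shrinks differences of low genes.

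Each sign that turned belonged to a comparison that the main test did not call. Cpt1a in hepCLiP became 0.03334 with DESeq2 and 0.03466 with RLE factors, and Vnn1 in bilCLiP -0.001129 with no filter. With RosaYFP samples, Acot1 became -0.09797 and Pdk4 -0.08479 in hepCLiP, and the difference of the effects on Eci2 0.02981. Total-count scaling in hepCLiP gave Acadl -0.3098, Acads -0.2482, Eci1 -0.3812, Acaa1a -0.2982, Acot1 -0.3519, Acat1 -0.0775, Ppargc1a -0.5446, Pdk4 -0.1415 and Vnn1 -0.4513. In bilCLiP it gave Acadl -0.1844, Acads -0.36, Eci1 -0.01831, Acaa1a -0.2726, Decr2 -0.05511, Acot2 -0.03045 and Vnn1 -0.4638. With 1 library left out, Cpt1a ran from -0.1627 to 0.1464, Ppargc1a from -0.3054 to 0.6802 and Vnn1 from -0.4692 to 0.4465 in hepCLiP. In bilCLiP, Acads ran from -0.007316 to 0.2113 and Vnn1 from -0.565 to 0.9276. Fabp1 between origins in 3D ran from -0.1935 to 0.3451, and the difference of the effects on Eci2 from -0.31 to 0.08289. Low counts in 2D limit the folds of Fabp1, Slc27a2, Cd36, Fgf21, Bdh1, Slc27a5, Acsm1, Acsm5, Plin5, G0s2 and Cidea.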

Other observations

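Vnn1 was low in replicate 1 of bilCLiP in both cultures, at 1.68 CPM in 2D and 3.82 in 3D, against 35.8 to 66.1 CPM in the other 4 bilCLiP libraries. Dcn, a fibroblast gene, was at 281.5 CPM in the highest of the 3 hepCLiP 3D libraries and at 2.64 in the lowest, against 0.0909 to 2.22 in hepCLiP 2D. In bilCLiP it was at 0 to 1.14 in 2D and 6.37 to 17.8 in 3D. The other 6 fibroblast and stellate markers were at most 1.17 CPM in the hepCLiP 3D libraries. The part of Dcn in the results of the 38 genes was not tested.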
